A study of Mus musculus with 7 samples.

Results

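Whole testis of a mouse without the transcription factor ERM was compared with whole testis of a wild-type mouse, both at 4 weeks of age. The 2 samples, of 7 in the series, were chosen by their labels, which name the tissue, the age and the genotype, and each was hybridised to 1 array of the same design with 12488 probe sets. The labels give neither the targeted allele nor the strain, and they do not say how many animals gave RNA to an array or whether animals were pooled. Nor do they say in which cells the gene was removed. A gene removed in the whole animal would be missing from germ cells and somatic cells alike. For a side by side view, 2 further samples were used, primary Sertoli cells of wild-type and of ERM knockout mice at 4 weeks, measured on another array design. With 1 array per genotype no difference had a replicate check, and no p-value or standard deviation between animals could be given.

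ERM is the protein product of Etv5 and belongs to the ETS proteins, which bind DNA at a core GGAA. In the seminiferous tubule, undifferentiated spermatogonia either renew themselves or differentiate, and retinoic acid then drives differentiating spermatogonia into meiosis. Spermatocytes recombine their chromosomes and divide into round spermatids, which elongate, pack their DNA with protamines and build the sperm tail. Sertoli cells hold all these stages within the tubule. Leydig cells, macrophages, vessels and fibroblasts lie between tubules. In the first wave of spermatogenesis these stages appear one after the other, so the mix of germ cells depends on age. By its title, the study asked how germ line stem cells are lost when ERM is missing.

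Intensities were scaled so that the trimmed mean of each array was 500, and a gene was kept when a probe set reached the floor of 100 on at least 1 array. A gene was represented by its probe set with the highest mean. All ratios are log2 of knockout over wild type, so that 1 or -1 is a 2-fold difference, and where either intensity was under the floor the ratio is a bound. In all, 7516 genes were kept, and the floor was reached by 82.2% of probe sets in wild type and 82.1% in the knockout. The correlation between the arrays was 0.96 across kept probe sets, which are not independent replicates. No probe set was named Etv5, so the loss of the targeted gene could not be checked in testis and directions are those between the arrays as labelled. The 3′ to 5′ ratio of the Gapdh control probe sets, a sign of RNA integrity, was 1.08 on the wild-type and 1.11 on the knockout array. Of the transferrin receptor controls 2 had ratios of -0.77 and -0.69 and the other lay below the floor on the knockout array. Those of actin had 0.26 and 0.18. The median of all 7516 genes was -0.01, their robust standard deviation was 0.29, and 52.1% lay below 0. Among 345 bright genes with 2 or more probe sets, the standard deviation per probe set was 0.26. Just above the floor stood Cyp4v3, Olfr92 and Pou2af1, with 100.04 for Cyp4v3 on the knockout array, and just below it were Ptpn11, Arf6 and Mea1. The tissue label was checked against defining markers: Prm1, Prm2, Tnp1, Tnp2 and Ldhc of germ cells, Clu, Wt1 and Inha of Sertoli cells and Star, Cyp11a1 and Cyp17a1 of Leydig cells were all above the floor on both arrays. Sycp3, a spermatocyte marker, lay below it on both.

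Past 2-fold on the lower side were 2 of 8 kept genes of differentiating spermatogonia and 1 of 9 of meiotic entry. So were 3 of 34 genes of mitosis and 3 of 39 of replication. Past 2-fold on the higher side were 1 of 24 kept Sertoli cell genes and 2 of 11 fibroblast genes. From the list of cholesterol efflux and lipid transport 1 of 13 was there too. On the knockout array 64 genes were at least 2-fold lower, which is 0.852% of the 7516 kept, and 40 were at least 2-fold higher, which is 0.532%. Of the 64 lower genes 19 belonged to one of 45 gene lists on cell types and processes, and of the 40 higher genes 7 did. Of all 7516 kept genes 676 did. The lists were chosen with earlier results of these data known, so membership is not independent of these counts. Bounds stood behind 11 of the lower and 6 of the higher ratios. Differences of this size were found in 1.72% of the 1392 genes with a mean intensity under 200 and in 1.42% of the 1976 genes between 500 and 1000. None of the 413 genes at 2000 or above was past 2-fold. When the floor was raised from 0.2 to 0.4 of the trimmed mean, 35 genes were lower and 22 higher. At 0.1 of it, 83 were lower and 61 higher.

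Different probe sets of the same gene gave the nearest thing to a repeat measurement, on the same RNA. Of 1495 genes with 2 or more kept probe sets, 3 had all of them past 2-fold in one direction, which is 0.201%. These were Dazl on the lower side, and Rab31 and Serpina5 on the higher side. Dazl, an RNA-binding protein that germ cells need to enter meiosis, read 1364 on the wild-type and 402 on the knockout array, and its probe sets gave ratios of -1.76 and -1.75. Rab31, a small GTPase of vesicle traffic, read 417 and 964, with ratios of 1.21 and 1.44. Serpina5, the protein C inhibitor of the serpin family, read 574 and 1331, with ratios of 1.21 and 1.45. Most other genes past 2-fold had no second probe set, 54 of the 64 lower and 27 of the 40 higher ones. Among the remaining 10 lower genes 5 had a probe set of opposite sign, as had 4 of the remaining 13 higher genes. Over all genes with 2 or more probe sets, 54.8% had the same sign throughout. At the edge of the 2-fold line, Wsb1 (297 and 148) lay just inside the lower side and Hnrnpa2b1 (3374 and 1688) just outside it. On the higher side Tbl1x (214 and 428) lay just inside and Prkar2a (1092 and 2184) just outside.

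**Figure D1:**
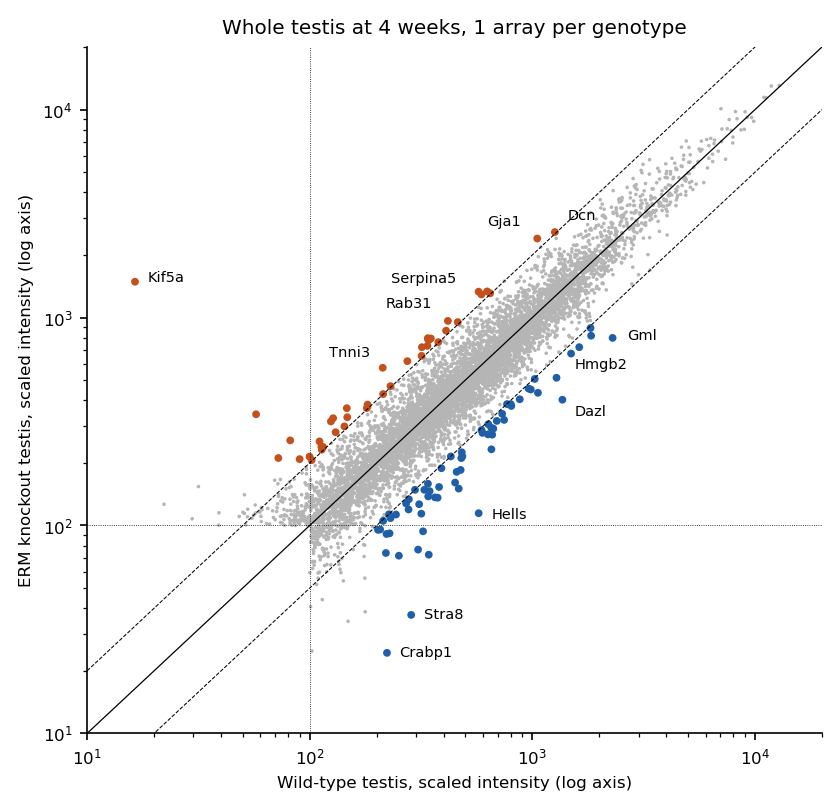
Scaled intensity of each of 7516 genes on the wild-type array (horizontal, log axis) and the ERM knockout array (vertical, log axis), with 1 array each. The solid line marks equal intensity, the dashed lines 2-fold, the dotted lines the floor of 100, and 64 genes in blue and 40 in orange lie past 2-fold. Dazl lies below the band at 1364 and 402, and Kif5a far above it at 16.4 and 1486.

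The promoters of 2 germ cell genes are shown because these genes mark the step from spermatogonium to meiosis and were both past 2-fold on the lower side. Each sequence is the 250 bases before the transcription start in RefSeq (assembly GRCm38.p6), written 5′ to 3′ along the gene, with CCAAT boxes on either strand in capitals. The Dazl window is chr17:50293621-50293870 on the minus strand and that of Stra8 is chr6:34920698-34920947 on the plus strand.
Dazl: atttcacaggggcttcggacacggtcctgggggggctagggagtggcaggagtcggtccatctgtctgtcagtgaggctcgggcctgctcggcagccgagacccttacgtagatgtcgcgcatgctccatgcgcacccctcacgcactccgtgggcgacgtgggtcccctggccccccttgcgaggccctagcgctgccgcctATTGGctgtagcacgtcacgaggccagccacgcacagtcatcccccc
Stra8: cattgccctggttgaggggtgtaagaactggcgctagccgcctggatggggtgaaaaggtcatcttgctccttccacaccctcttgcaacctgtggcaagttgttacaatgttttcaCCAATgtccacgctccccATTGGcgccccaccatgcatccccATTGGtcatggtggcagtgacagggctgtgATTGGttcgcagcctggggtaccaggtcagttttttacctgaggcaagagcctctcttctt
The Dazl window holds 1 such box, written ATTGG, and the window of Stra8 holds 4. A match is a run of letters and not a measured site.

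Lower germ cell signal was found in the lists of differentiating spermatogonia and of meiotic entry, and not in those of spermatids. Differentiating spermatogonia genes had a median of -0.37, with 7 of 8 kept members below 0 and 2 past 2-fold. Stra8, which retinoic acid induces before meiosis, read 286 in wild type and 37.1, below the floor, in the knockout, so that its ratio of -1.51 is a bound. That bound moved to -2.51 when the floor was lowered to 0.1 of the trimmed mean and to -0.51 when it was raised to 0.4. Crabp1, a cellular retinoic acid binding protein, read 222 and 24.4, a bound of -1.15. Dmrt1, a transcription factor of spermatogonia and Sertoli cells, read 388 and 259, and Uchl1, a ubiquitin hydrolase of spermatogonia, 1281 and 945. Those ratios were -0.58 and -0.44, both within 2-fold. The receptor Kit read 360 and 293, a ratio of -0.29, and the cyclin gene Ccnd2 was the 1 member above 0, at 0.30. From whole tissue, fewer cells of a type and less RNA per cell cannot be told apart.

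Genes of meiotic entry, chromosome axis and recombination had a median of -0.28, and 7 of 9 kept members lay below 0. Dazl was the 1 member past 2-fold. Sycp1, which forms the transverse filaments of the synaptonemal complex, read 880 on the wild-type and 481 on the knockout array, a ratio of -0.87. Dmc1, the meiotic strand exchange recombinase, read 149 and 34.6, a bound of -0.57. The cohesin subunit Stag3 stood at -0.28, Brca1 at -0.30 and Brca2 at -0.17. Against these, Syce2, of the central element of the synaptonemal complex, stood at 0.31 and the cohesin subunit Smc3 at 0.27. Of 29 genes in this list only 10 had a probe set, so most of the meiotic machinery was not measured. Together, the lists of differentiating spermatogonia and meiotic entry had 14 of 17 genes below 0 and a median of -0.29.

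Medians of later germ cell lists lay closer to 0 or above it. Genes of pachytene and later spermatocytes had a median of -0.10, with 10 of 16 below 0 and none past 2-fold. Mybl1, a transcription factor of pachytene cells, read 157 on the wild-type and 107 on the knockout array (-0.56). The testis cytochrome c Cyct read 600 and 417 (-0.52), and the chaperone Hspa2 5888 and 4456 (-0.40). Lactate dehydrogenase C, Ldhc, a metabolic gene of spermatocytes and spermatids, was nearly equal at 9229 and 9171. The 2 highest members were Pgk2, the germ cell phosphoglycerate kinase, at 0.58, and Hspa1l, at 3141 and 5454 (0.80). Of the piRNA pathway only 3 of 16 genes were kept, all below 0, with the germ cell helicase Ddx4 at 2596 and 1925 (-0.43).

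Spermatid genes leaned to the other side. Round spermatid and acrosome genes had a median of 0.09, with 8 of 13 above 0, from -0.32 for the acrosomal protease Acr to 0.74 for the kinase Tssk1. Genes of elongating spermatids had a median of 0.24, and 16 of 18 lay above 0, none past 2-fold. The main DNA-packing genes were close to equal: Prm1 read 12857 on the wild-type and 13053 on the knockout array (0.02), Prm2 stood at 0.11, Tnp1 at 0.11 and Tnp2 at 0.13. Prm3, a spermatid gene of the protamine cluster, read 3360 and 5741, and its probe sets gave 0.77 and 0.89. The sperm tail genes Akap4 (2871 and 4287), Odf2 (4675 and 6599) and Smcp (4236 and 5832) had ratios of 0.58, 0.50 and 0.46. Over both spermatid lists 24 of 31 genes lay above 0.

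**Figure D2:**
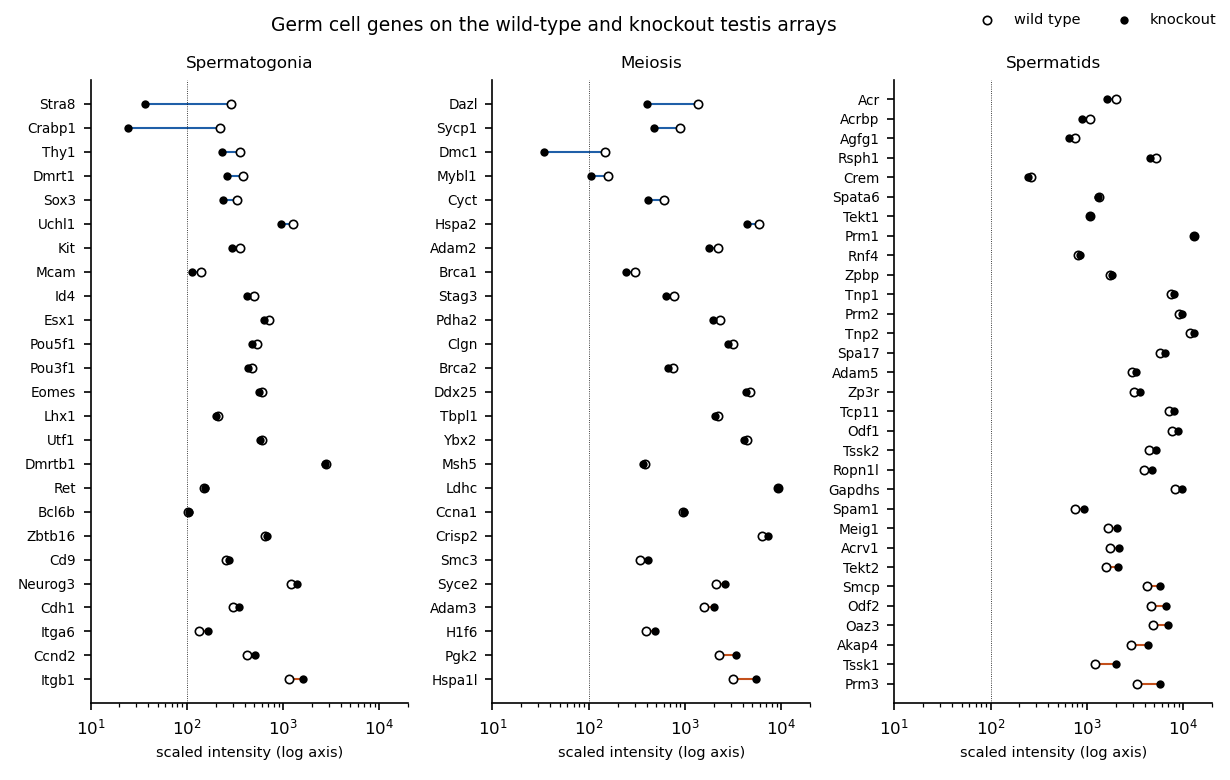
Scaled intensity (log axis) of kept germ cell genes on the wild-type (open circle) and ERM knockout (filled circle) testis arrays, 1 array each, ordered by ratio within each panel, with blue lines where the knockout is lower, orange lines where it is higher and a dotted line at the floor of 100. The widest lines on the lower side belong to Stra8, Crabp1, Dazl and Dmc1, and Prm1 shows almost none.

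The stem cell regulators that were kept did not lean either way. The list of undifferentiated spermatogonia and stem cell regulators had a median of -0.05, with 8 of 17 kept members above 0, 9 below and none past 2-fold. Thy1, a surface marker of these cells and of several other cell types, read 360 on the wild-type and 234 on the knockout array (-0.62). Id4, a marker of the stem cell pool, read 502 and 425 (-0.24), and Zbtb16, which maintains stem cells, 650 and 683 (0.07, and -0.27 on its other probe set). Neurog3, of spermatogonia committed to differentiate, stood at 0.19, and the integrin subunit Itgb1 at 0.50 and 0.57 on 2 probe sets. Gfra1, the receptor for GDNF, lay below the floor on both arrays, as did Epcam and Sall4. Of 28 genes in the list only 20 had a probe set, with Nanos2, Nanos3, Lin28a and Foxo1 among those without. The list therefore rests on members other than these, and its median cannot stand for the stem cell pool.

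Most lists of somatic cells had medians above 0. Over the 9 somatic lists 84 of 116 kept genes lay above 0, with a median of 0.21. Beside this stood medians of 0.18 for the spermatid lists together and 0.20 for housekeeping genes. The summed intensity of Sertoli genes was 27233 on the wild-type and 34597 on the knockout array, and that of Leydig genes was 15962 and 18879. Macrophage sums were 8667 and 10700, fibroblast sums 7486 and 10480, and peritubular sums 10181 and 11690. A sum weighs bright members most, and the peritubular list had 6 genes above and 6 below 0 (median 0.05). The endothelial sums of 3374 and 3618 lay closer together, though the median of that list was 0.23. So did the red blood cell sums of 4010 and 4231 and the epididymal sums of 1018 and 1076. None of the kept members of these lists read 0. The part of somatic cell content in the lower germ cell values was not tested.

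Genes of dividing cells formed the list lowest of all 45. Mitosis and G2/M genes had a median of -0.46, with 30 of 34 kept members below 0 and 3 past 2-fold. Mad2l1, of the spindle checkpoint, read 457 on the wild-type and 181 on the knockout array, a ratio of -1.34. Hmgb2, a chromatin protein of dividing and meiotic cells, read 1836 and 818 (-1.17). All kept probe sets of Hmgb2 carry a name suffix that marks possible cross-hybridisation. Top2a, the topoisomerase that untangles chromosomes in mitosis, read 732 and 344 (-1.09). Next came the kinase subunit gene Cks2 (2799 and 1450, -0.95) and the proliferation marker Mki67, at -0.91 and -0.66 on 2 probe sets. Prc1 of the midzone, the kinase Aurkb and the checkpoint kinase Bub1 stood at -0.72, -0.68 and -0.68, with -0.76 on the other probe set of Bub1. Cdc20, the activator of the anaphase-promoting complex, read 2825 and 1746 (-0.69). Others were nearer to 0, with Cdk1 at -0.34, Ccnb2 at -0.22 and Plk1 at 0.00. The exceptions were Kif2c, a kinesin that depolymerises microtubules, at 1168 and 1928 (0.72), and the phosphatase Cdc25c at 0.54 and 0.39.

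The promoter of Top2a is shown because it carries more of the searched cell cycle letters than the others printed here. It is chr11:99024190-99024439 on the minus strand of GRCm38.p6, with CCAAT boxes (CCAAT or ATTGG) and the core of the cell cycle homology region (TTTGAA or TTCAAA) in capitals.
Top2a: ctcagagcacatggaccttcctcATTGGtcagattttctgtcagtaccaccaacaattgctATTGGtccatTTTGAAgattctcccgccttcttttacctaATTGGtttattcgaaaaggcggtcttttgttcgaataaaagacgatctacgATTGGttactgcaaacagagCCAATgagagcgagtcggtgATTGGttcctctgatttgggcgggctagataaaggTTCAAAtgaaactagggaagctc
The window holds 6 CCAAT boxes and 2 matches to the homology region core, the nearer of them 23 bases before the start.

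Replication genes were lower as well, though less evenly. They had a median of -0.23, with 30 of 39 below 0 and 3 past 2-fold. Hells, a helicase that remodels chromatin and supports DNA methylation, read 574 on the wild-type and 115 on the knockout array (-2.33, and -1.52 when the floor was raised to 0.4 of the trimmed mean). Mcm2, of the replicative helicase, read 220 and 73.7, a bound of -1.14, and Rpa2, of the single-strand binding complex, 228 and 91.6, a bound of -1.19. Slbp, which binds histone mRNA, read 1410 and 728 (-0.95), the primase subunit Prim2 228 and 121 (-0.91) and the sliding clamp Pcna 990 and 719 (-0.46). Other subunits of the replicative helicase ranged from -0.44 for Mcm7 to -0.04 for Mcm5. Probe sets disagreed in size for Mcm5, at -0.04 and -1.07, and for the thymidine kinase Tk1, at -0.13 and -1.24. Near or above 0 were Cdc45 (-0.03), the repair ligase Lig1 (0.09) and the cyclin Ccne1 (0.23). Outside these lists, further genes of division and repair past 2-fold included Plk4, which starts centriole duplication (381 and 153), Topbp1 of the replication checkpoint (480 and 211), Gtse1 (482 and 225) and Anapc4 of the anaphase-promoting complex (591 and 287). Their ratios were -1.32, -1.19, -1.10 and -1.04.

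The list of cyclins, kinases and inhibitors did not share this direction. Its median was 0.14, with 14 of 23 members above 0. Cdkn1b, an inhibitor that restrains Sertoli cell and germ cell division, read 804 on the wild-type and 376 on the knockout array (-1.10), while its other probe set gave 0.22. Cdkn1c, a related inhibitor, read 589 and 1107 (0.91). The pocket protein Rbl1 stood at -0.85 and its relative Rbl2 at 0.50.

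Chromatin genes were lower in 24 of 27 cases, with a median of -0.29 and 5 past 2-fold. Beside Hells and Hmgb2, which other lists share, these were Pcgf5, a ring finger protein of Polycomb complexes, at 655 on the wild-type and 232 on the knockout array (-1.49), the linker histone H1f10 at 668 and 292 (-1.19) and Smarca5, the motor of ISWI remodelling complexes. Smarca5 read 654 and 295, with ratios of -1.15 and -0.41 on 2 probe sets. Cbx1, a heterochromatin protein, stood at -0.80, the maintenance methyltransferase Dnmt1 at -0.77 and Eed, of the Polycomb methyltransferase, at -0.71. H2ax, the histone phosphorylated at DNA breaks and on the sex body, read 1599 and 1009 (-0.66). Other Polycomb genes were closer to 0, with Ezh2 at -0.29 and Bmi1 at -0.17. The exceptions above 0 were Hmgb3 (1186 and 1981, 0.74), Rbbp7 (0.31) and Ring1 (0.03).

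RNA processing genes gave the second lowest median, -0.37, with 24 of 29 below 0, 3 at least 2-fold lower and 1 at least 2-fold higher. Srsf1, a splicing activator of the SR family, read 375 on the wild-type and 136 on the knockout array (-1.47), but its other 3 probe sets gave -0.65, -0.37 and -0.22. Ptbp2, a splicing repressor with a role in germ cells, read 1060 and 434, with ratios of -1.29 and -0.62. Lsm3, of the U6 snRNP, read 1624 and 720 (-1.17). The other SR proteins Srsf2 and Srsf3 were at -0.90 and -0.67 and at -0.91 and -0.50 on 2 probe sets each. Hnrnpa2b1 was split, just short of 2-fold lower on one probe set and at 0.36 on the other. On the other side stood Mbnl1, a splicing regulator of differentiated cells, at 274 and 617 (1.17), and Hnrnpa1 at 164 and 311 (0.92). Lsm8, also of the U6 snRNP, and Pspc1, a protein of nuclear paraspeckles, lay outside the list and were past 2-fold, Lsm8 at 1025 and 507 and Pspc1 at 770 and 383. The lists of division, chromatin and splicing together held 126 genes, of which 105 lay below 0, with a median of -0.31.

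**Figure D3:**
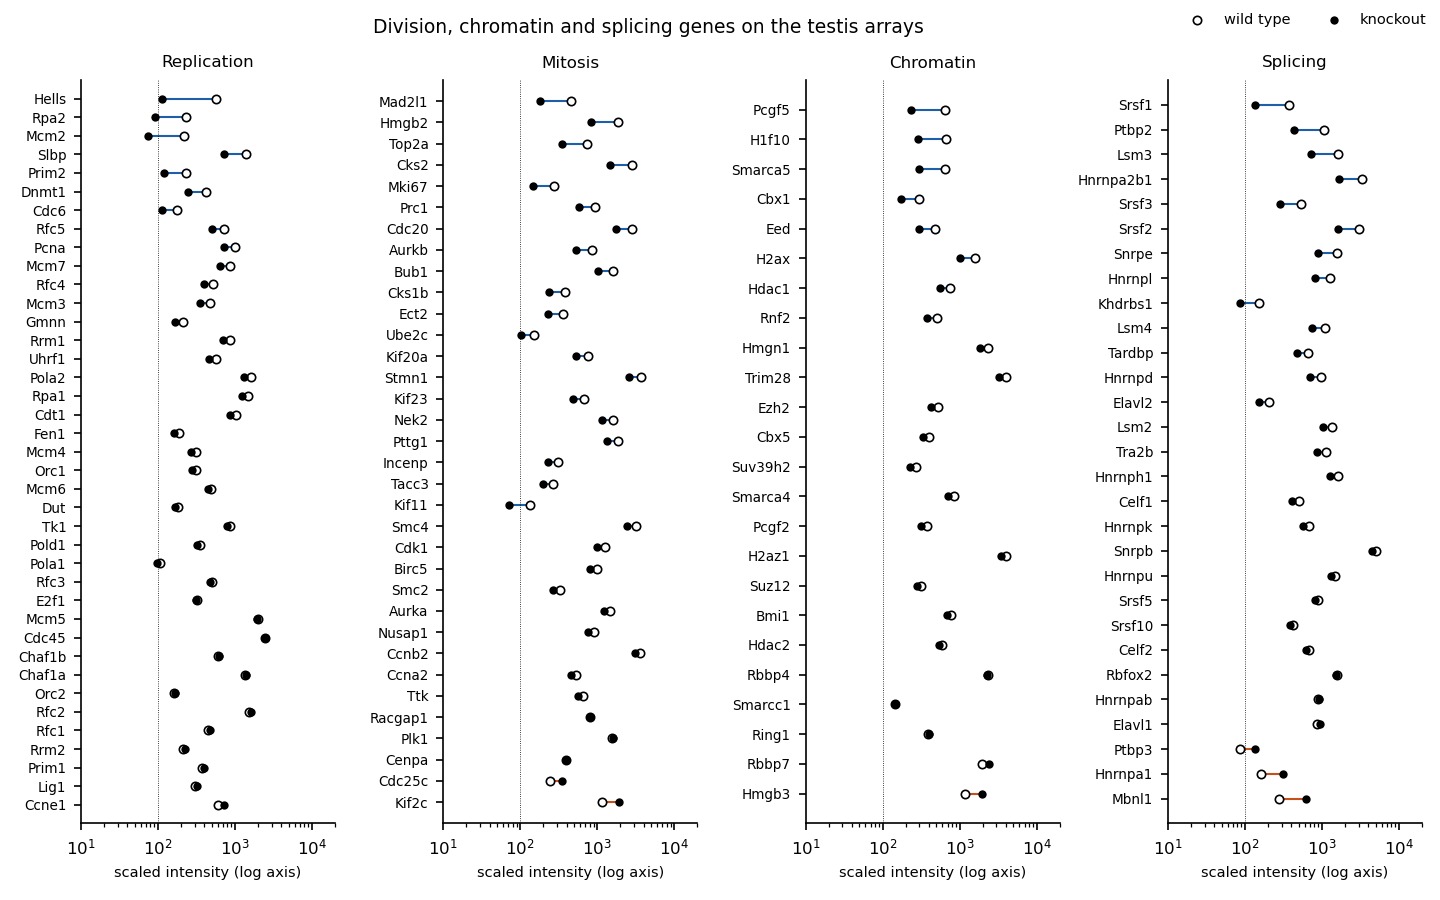
Scaled intensity (log axis) of kept replication, mitosis, chromatin and splicing genes on the wild-type (open circle) and ERM knockout (filled circle) testis arrays, 1 array each, ordered by ratio and with genes of more than 1 list drawn once; blue lines mark a lower and orange lines a higher knockout value, and the dotted line the floor of 100. Filled circles lie to the left for 105 of the 126 genes, for Hells at 574 and 115.

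Sertoli cell genes were mostly higher on the knockout array. The list had a median of 0.25, with 17 of 24 kept members above 0 and 1 past 2-fold. Gja1, the connexin of gap junctions between Sertoli cells and with germ cells, read 1052 on the wild-type and 2398 on the knockout array. Its probe sets gave 1.19 and 0.54, and both carry a name suffix that marks possible cross-hybridisation. Secreted factors were close behind, the KIT ligand Kitl, which acts on germ cells, at 573 and 1119, and Inhbb, a subunit of inhibin, at 251 and 492, both with a ratio of 0.97. The other inhibin subunit Inha read 870 and 1501 (0.79), and the transcription factor Wt1 302 and 509 (0.75). Rhox5, Aqp8 and the tight junction gene Cldn11 stood at 0.73, 0.73 and 0.72. The cathepsin Ctsl, secreted by Sertoli cells in a stage-dependent way, read 3081 and 5099 (0.73). Not all followed. Amh, a hormone of immature Sertoli cells, read 877 and 541 (-0.70), the activin subunit Inhba 1350 and 1036 (-0.38), the FSH receptor Fshr 502 and 451 (-0.15) and the transcription factor Gata4 618 on both.

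Junction genes overlapped with these. Their list had a median of 0.18, with 14 of 21 above 0. F11r, a junctional adhesion molecule, read 585 on the wild-type and 1044 on the knockout array (0.84). The adherens genes Ctnna1 and Vcl stood at 0.51 and 0.52. The scaffold Tjp1 was at -0.38 and -0.17 on 2 probe sets, and Nectin3, with which spermatids attach to Sertoli cells, at 342 and 209 (-0.72, and -0.17 on its other probe set).

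Leydig cell and steroid genes were above 0 in 14 of 16 cases, with a median of 0.28 and none past 2-fold. Hsd3b6, the steroid dehydrogenase of adult Leydig cells, read 752 on the wild-type and 1235 on the knockout array (0.72). Star, which carries cholesterol into mitochondria, read 323 and 417 (0.37), and Cyp11a1, which cleaves its side chain, 1880 and 2052 (0.13). Probe sets for Cyp17a1 disagreed, at 0.19 and -0.56. Insl3, a peptide hormone of mature Leydig cells, read 404 and 264 (-0.62).

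Matrix and interstitial genes gave the highest medians. Basement membrane genes had a median of 0.36, the highest of all lists, with 10 of 12 above 0 and none past 2-fold. The laminin gene Lamb2 read 201 on the wild-type and 383 on the knockout array (0.93), Lamb1 stood at 0.85 and 0.19 on 2 probe sets, and Col4a1 at 0.45. Fibroblast and interstitial collagen genes had a median of 0.35, with 9 of 11 above 0 and 2 past 2-fold. Dcn, a small proteoglycan of loose connective tissue, read 1262 and 2577 (1.03). Pdgfra, the growth factor receptor of interstitial cells, read 350 and 793 (1.18), with -0.05 on its other probe set. Col3a1 stood at 0.55, and Fn1 at -0.14. Ddr1, a collagen receptor kinase outside the list, read 410 and 864 (1.08).

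Of the remaining cells, macrophages had 17 of 22 genes above 0 and a median of 0.17. The activation marker Aif1, which is also expressed in testis outside macrophages, read 1064 on the wild-type and 1963 on the knockout array (0.88), Cd74 412 and 751 (0.87) and Cd68 152 and 254 (0.74). The defining surface marker Adgre1 went the other way, at 250 and 199 (-0.33). Peritubular genes were split, with 6 above and 6 below 0 and a median of 0.05, from Cnn1 at -0.35 to Actg2 at 0.54. Endothelial genes had a median of 0.23 with 6 of 10 above 0, where Kdr stood at -0.01. Red blood cell genes, of which 5 were kept, had a median of -0.14.

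Signalling genes were split member by member. In the retinoic acid pathway 10 of 15 genes lay below 0 and 3 were at least 2-fold lower, with a median of -0.10. Beside Stra8 and Crabp1 the third was Rbp4, the retinol carrier, at 221 on the wild-type and 91.0 on the knockout array, a bound of -1.15. Aldh1a2, a retinoic acid synthesising enzyme of germ cells, read 562 and 381 (-0.56), and Cyp26a1, which degrades retinoic acid, 154 and 108 (-0.51). Aldh1a1, the synthesising enzyme of Sertoli cells, read 5053 and 6573 (0.38, and 0.09 on its other probe set). The receptors lay between -0.26 for Rxrb and 0.15 for Rxrg.

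In the BMP pathway the antagonist Nog read 747 on the wild-type and 322 on the knockout array (-1.21), the 1 member of 19 past 2-fold. Its signal carriers Smad1 and Smad5 were lower, Smad1 at -0.52 and -0.62 on 2 probe sets and Smad5 with a bound of -0.82. The inhibitory Smad7 (123 and 229) and the target Id2 (232 and 427) stood at 0.90 and 0.88, while Id3 stood at -0.46. Smad7 read close to the floor in wild type, and its ratio fell to 0.20 under alternative processing. In the inhibin and activin axis the signal carrier Smad2 read 402 and 274 (-0.55), and the activin antagonist Fst 840 and 1038 (0.31).

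Among niche growth factors Kitl was the 1 member far from 0, and the median of 15 genes was 0.04. GDNF, which sustains stem cells through the RET receptor, was measured by Gdnf at 529 on the wild-type and 432 on the knockout array (-0.29, and -0.14 on its other probe set). Ret itself read 151 and 154. The receptors had a median of -0.16, which ranged from -0.14 to 0.01 over 7 alternative ways of processing. Igf1r, the receptor for insulin-like growth factors, read 295 and 475 (0.68), its adaptor Irs2 257 and 431 (0.75) and its other adaptor Irs1 207 and 140 (-0.56).

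Other ETS factors were measured, although Etv5 was not. The closest relative on the array, Etv4, read 1193 on the wild-type and 1432 on the knockout array, with ratios of 0.26 and 0.04. The repressor Erf read 514 and 273 (-0.91), while its other probe set gave 0.31. Ets2 stood at 0.65, and the median of 12 ETS genes was 0.03. Genes of FGF and ERK feedback had a median of 0.06, with Dusp6 at -0.09 and Spry4 at 0.06. Chemokines had a median of 0.04, and Xcl1, which attracts dendritic cells, was the 1 member of 17 past 2-fold, at 597 and 279 (-1.10).

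Lipid, sugar and mitochondrial genes showed smaller shifts. Genes of cholesterol efflux and lipid transport were above 0 in 12 of 13 cases, with a median of 0.09. Abca1, which exports cholesterol, read 339 on the wild-type and 788 on the knockout array (1.21), but its other probe set gave 0.22. Apoe, the lipoprotein of cholesterol transport, read 946 and 1685, and the sterol-sensing nuclear receptor Nr1h3 125 and 221, both with a ratio of 0.83. Lipe, the hormone-sensitive lipase, read 590 and 1291 (1.13), and Adipoq, a hormone of fat cells, 329 and 633 (0.94). Other genes of fat cells were close to equal, Fabp4 at 239 and 255 and Cd36 at 184 and 186. Fat adhering to the tissue was not tested as a source.

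Glycolysis genes had a median of 0.21 with 13 of 19 above 0. Ldhb read 1028 on the wild-type and 1780 on the knockout array (0.79) and Hk2 482 and 801 (0.73). Slc2a3, the glucose carrier of germ cells, was at -0.69 and -1.32 on 2 probe sets (4029 and 2495 on the first). Respiratory chain genes were below 0 in 15 of 19 cases, with a median of -0.15, and cytoplasmic ribosome genes in 10 of 12, with a median of -0.11. Antioxidant genes had 18 of 25 above 0 and a median of 0.26, among them the peroxiredoxin Prdx3 at 0.61 and the glutathione transferase Gsta2 at 0.60. Housekeeping genes themselves had a median of 0.20, with 7 of 9 above 0, beside which the medians of the cell type lists are to be read.

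**Figure D4:**
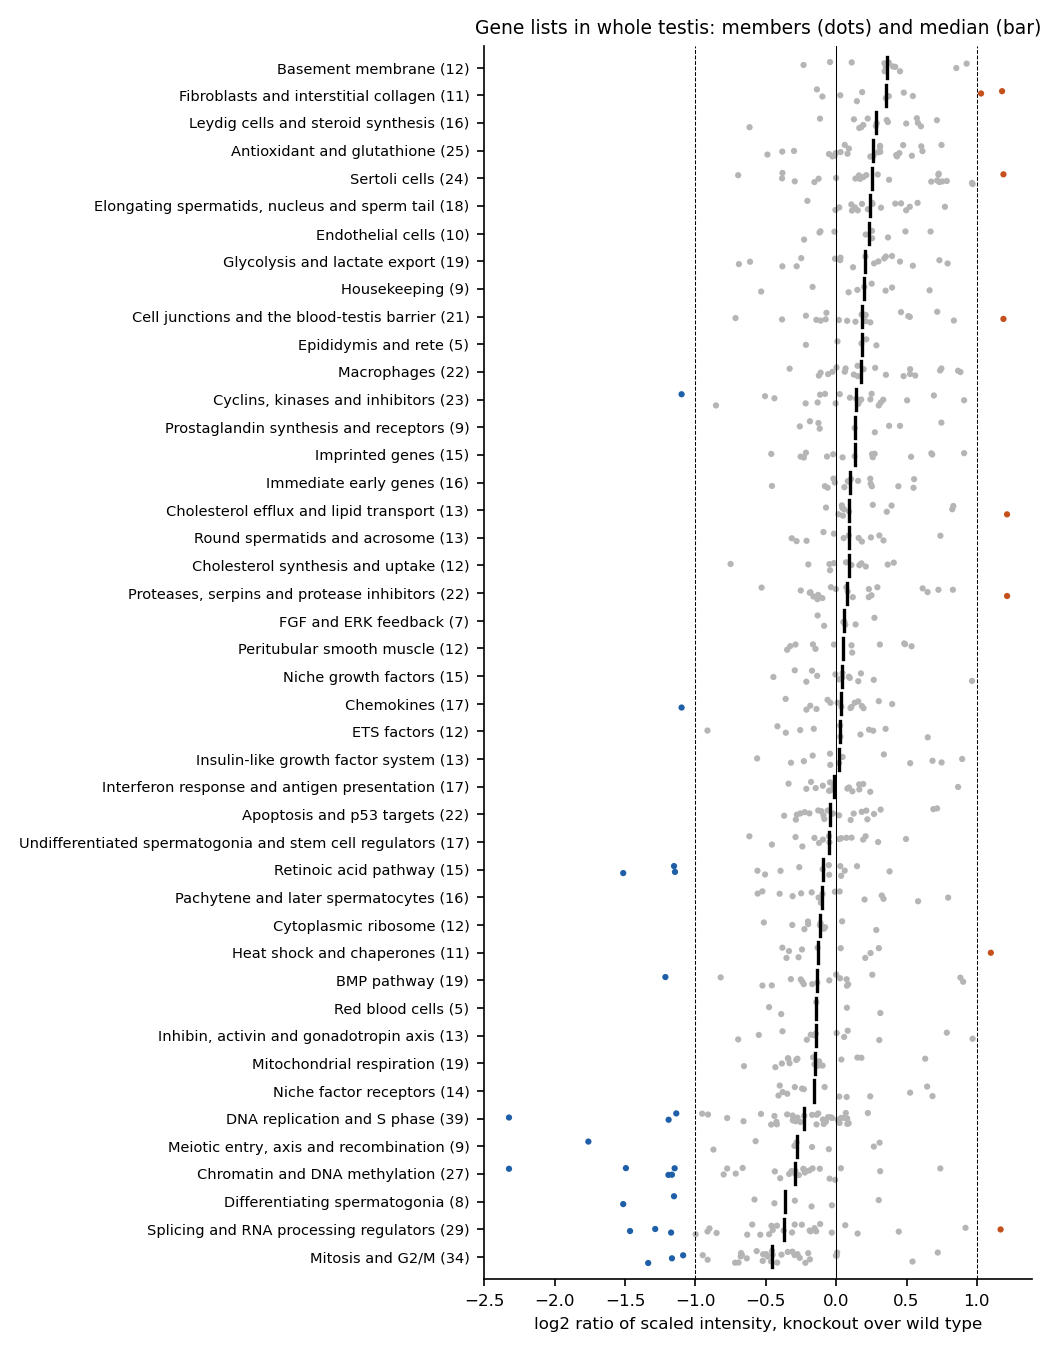
Log2 ratio of knockout over wild type for kept members (dots) of the 44 lists with at least 5 of them, with the median of each list as a bar and its number of members in brackets, 1 array per genotype. Lists run from mitosis at the bottom (-0.46) to basement membrane at the top (0.36), and blue or orange dots lie past 2-fold (dashed lines).

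Many of the genes with the largest ratios among bright genes belonged to no list. On the lower side Gml, which encodes a membrane-anchored protein, read 2293 on the wild-type and 798 on the knockout array (-1.52). Nup54, of the central channel of the nuclear pore, read 632 and 274 (-1.21), and Lbr, the lamin B receptor of the inner nuclear membrane, 634 and 307 (-1.05). Rexo5, an RNA exonuclease, read 962 and 455 (-1.08). Genes of DNA damage response were Uimc1, which brings BRCA1 to breaks, at 692 and 318 (-1.12), and Fignl1, which acts in recombination, at -1.04 on one probe set and -0.02 on another. Genes best known from neurons were also here: the thyrotropin-releasing hormone Trh (984 and 451, -1.13), the GABA transporter of synaptic vesicles Slc32a1 (799 and 383, -1.06) and the guidance cue Sema3e (663 and 343, -0.95). Dppa3, a germ line factor that protects methylation in the zygote, read 1159 and 591 (-0.97). Among dimmer genes Tex19.1, a germ cell gene that restrains retrotransposons, read 476 and 185 (-1.36), and Galr1, a galanin receptor, 467 and 150 (-1.63).

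On the higher side Tnni3, the cardiac form of troponin I, read 213 on the wild-type and 573 on the knockout array (1.43). Cited2, a coactivator active in gonad development, read 339 and 796 (1.23). Rasd1, a Ras-like gene induced by glucocorticoids, read 343 and 779 (1.18), and Car2, a carbonic anhydrase, 319 and 720 (1.17). Signalling genes on this side were the protein kinase Prkcq (1.09, and 0.08 on its other probe set), the phosphatase Ptprj (1.04, and 0.60), the adhesion scaffold Bcar1 (378 and 761, 1.01) and the protein kinase A subunit Prkar2a (1.00). Adam4, a metalloprotease gene of testis, read 646 and 1308 (1.02). The complement protease Masp1 read 749 and 1496 (1.00), the metabolic enzyme Grhpr 370 and 737 (0.99) and the mRNA decay factor Zfp36l1 302 and 593 (0.97). The glutamate receptor subunit Grin2b read 474 and 915 (0.95) and Fkbp9, a chaperone of the secretory pathway, 264 and 505 (0.94). Kif5a, a neuronal kinesin, headed the side with 16.4 and 1486, a bound of 3.89, and its other probe set gave 0.07. Both probe sets carry a name suffix that marks possible cross-hybridisation.

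A search of promoters for letters bound by ETS, E2F and other factors gave the following shares. The window ran from 250 bases before to 50 after each RefSeq start, a gene counted when any of its windows held the letters on either strand, and no motif contains another. The ETS letters CCGGAAGT were held by 7 of 57 lower genes with a window (12.3%), by 1 of 34 higher genes (2.94%) and by 8.30% of the 6012 kept genes with a window. The 7 were C2cd3, Fam207a, Gtse1, Nup54, Plk4, Rexo5 and Rpa2, and the 1 was Ak3. The E2F letters TTTGGCGC or TTTCGCGC were held by 3 lower genes (5.26%), Aspscr1, Slc32a1 and Topbp1, by 0 higher genes and by 1.78% of kept genes. The homology region core TTTGAA was held by 17.5% of lower, 14.7% of higher and 15.1% of kept genes, and CCAAT by 49.1%, 47.1% and 42.7%. The cAMP response element TGACGTCA was held by 2 lower genes and 1 higher gene, against 3.33% of kept genes. Among all 32851 RefSeq promoters the shares were 3.89% for ETS, 0.813% for E2F, 17.9% for the homology region, 37.4% for CCAAT and 1.79% for the cAMP response element. The 62 replication and mitosis genes with a window held E2F letters in 19.4%, the homology region in 37.1% and CCAAT in 67.7% of cases, whatever their ratio.

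Windows of Rexo5 and Nup54 are shown as those of lower genes with ETS letters, and the window of Rab31 as that of a higher gene with both probe sets past 2-fold and no ETS letters. Capitals mark CCGGAAGT or its reverse ACTTCCGG in Rexo5 and Nup54, and CCAAT and TTTGAA in Rab31. They lie at chr7:119793872-119794121 (plus strand), chr5:92435200-92435449 (minus strand) and chr17:65772753-65773002 (minus strand) of GRCm38.p6 and end at the base before the start.
Rexo5: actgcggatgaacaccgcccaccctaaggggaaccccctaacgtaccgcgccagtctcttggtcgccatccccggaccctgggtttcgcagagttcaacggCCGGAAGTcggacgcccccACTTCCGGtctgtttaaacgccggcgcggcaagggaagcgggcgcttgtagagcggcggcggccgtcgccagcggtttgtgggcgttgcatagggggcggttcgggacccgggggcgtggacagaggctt
Nup54: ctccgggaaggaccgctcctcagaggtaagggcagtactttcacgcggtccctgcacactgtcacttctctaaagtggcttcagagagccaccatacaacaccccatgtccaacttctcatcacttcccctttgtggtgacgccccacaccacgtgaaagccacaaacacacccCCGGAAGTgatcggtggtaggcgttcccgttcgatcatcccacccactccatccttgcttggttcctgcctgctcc
Rab31: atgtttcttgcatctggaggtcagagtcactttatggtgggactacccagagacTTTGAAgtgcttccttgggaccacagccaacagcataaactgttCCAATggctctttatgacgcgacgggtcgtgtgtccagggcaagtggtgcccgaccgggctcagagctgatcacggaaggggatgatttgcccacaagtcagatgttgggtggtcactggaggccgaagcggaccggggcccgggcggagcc
Rexo5 holds the ETS letters 149 and 130 bases before the start used here, once on each strand, and Nup54 holds them 76 bases before. Counted from other RefSeq starts of Rexo5, the same letters lie 157 and 138 or 214 and 195 bases before. Because these windows were picked by their letters, they do not show how the letters relate to direction. The windows of the lower genes Dazl and Stra8 printed above hold no ETS letters, and the higher gene Ak3 holds them. These letters are a description of the windows, and binding of ERM was not measured.

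Genes past 2-fold in testis were also read in primary Sertoli cells of the same age, from the array design used for those cells. Only ratios within a design were set side by side, and the testis contains Sertoli cells, though not these preparations. Of the 64 genes lower in testis 62 were kept there, and 4 of them were at least 2-fold lower (6.45%), against 3.12% of all 16018 genes kept in the Sertoli comparison and 3.10% of the 6971 kept in both tissues. The 4 were Stra8 (866 on the wild-type and 259 on the knockout Sertoli array, -1.74), Pdpn (1088 and 372, -1.55), Mcm2 (407 and 156, -1.39) and Hells (707 and 307, -1.20). Another probe set of Hells gave -0.15 and one of Mcm2 -0.88. When the floor was raised to 0.4 of the trimmed mean, the count was 1. Of the 62 genes 45 lay below 0 (72.6%), against 48.4% of the genes kept in both.

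Of the 40 genes higher in testis, all kept in Sertoli cells, Acss1 was the 1 gene also at least 2-fold higher (2.5%). That share was 0.724% for all genes kept there and 0.832% for the genes kept in both tissues. Of the 40 genes 25 lay above 0 and 15 below (37.5%, against 48.4% of the genes kept in both). Acss1, the mitochondrial acetyl-CoA synthetase, read 615 and 1232 there, with 1.00 on both probe sets, and 1.02 in testis. Dcn went the other way, as the 1 gene at least 2-fold lower there (2.5%, against 3.10% of the genes kept in both). It read 6207 and 3027 in Sertoli cells (-1.04, and -0.05 on its other probe set) and stood at 1.03 in testis. The 3 genes with all testis probe sets past 2-fold kept their direction within 2-fold: Dazl at -0.54 and -0.66, Rab31 at 0.59 and 0.69 and Serpina5 at 0.43. Gja1, by contrast, read 7742 and 7714. Germ cell genes such as Dazl and Stra8 were above the floor on the Sertoli arrays, and the germ cell content of those preparations was not tested.

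By list, mitosis genes had a median of -0.46 in both tissues over the 33 genes measured in both. Splicing genes did not share theirs, at -0.37 in testis and 0.00 in Sertoli cells over 29 genes, nor did chromatin genes, at -0.29 and -0.05 over 27. Sertoli cell genes stood at 0.25 and 0.22 over 24 genes, and replication genes at -0.24 and -0.35 over 38. Germ cell lists, in the same order, stood at -0.29 and -0.49 for differentiating spermatogonia (7 genes) and -0.28 and -0.28 for meiotic entry (9). Pachytene genes stood at -0.10 and -0.51 (16), round spermatid genes at 0.07 and -0.24 (12) and elongating spermatid genes at 0.24 and 0.27 (18). Undifferentiated spermatogonia genes stood at -0.01 and -0.16 (16). Fibroblast genes stood at 0.35 in testis and -0.81 in Sertoli cells over 11 genes, and macrophage genes at 0.20 and -0.68 over 21. Leydig cell genes stood at 0.28 and -0.22 over 14. Endothelial genes were near 0 in both, at -0.01 and -0.04 over 7, while the 10 kept in testis had a median of 0.23. Chemokines stood at 0.10 and -0.94 over 15. These testis medians cover only genes measured in both tissues, so they can differ from those given above. The difference between tissues was not tested, since each ratio rests on 1 pair of arrays.

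**Figure D5:**
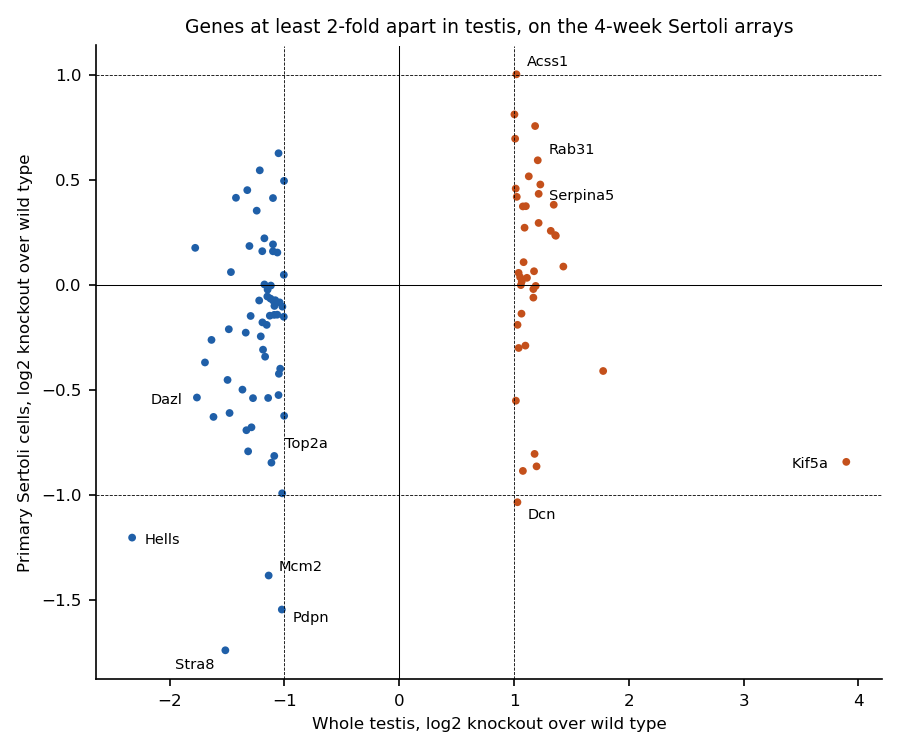
Log2 ratio of knockout over wild type in whole testis (horizontal) and in primary Sertoli cells at 4 weeks (vertical) for the 62 lower (blue) and 40 higher (orange) testis genes kept in both, 1 array per group, with 2-fold as dashed lines. Hells, Stra8, Mcm2 and Pdpn lie past 2-fold on the lower side of both axes, Acss1 on the higher side of both, and Dcn on opposite sides.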

How the data were processed

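RNA of mouse whole testis was measured on 2 single-colour Affymetrix arrays, 1 per genotype, and the groups were taken from the labels. The deposited values are linear probe set intensities, the lowest of them 1. The software and scaling that the authors used were not given in the sources used here. A scaling factor per array brought its trimmed mean (percentiles 2 to 98, controls left out) to 500. Scaled intensities under 100, or 0.2 of that mean, were raised to this floor ahead of the log2 ratio, and a gene with both arrays under it got no ratio.

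Of 12488 probe sets, 10833 were annotated to exactly 1 gene (8251 genes), 396 to several and 1193 to none, and 66 were controls. Gene identifiers of 10817 matched a RefSeq table of GRCm38.p6, and no symbol was altered by it. Kept were 9297 probe sets of 7516 genes. The 45 lists name 935 genes, of which 727 had a probe set and 676 were kept. Genes were counted at 2-fold. With 1 array per group there was no test. Precision is limited by the number of arrays.

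The rule for naming took genes whose 2 or more probe sets were all past 2-fold, the 25 highest and 25 lowest ratios among genes that reached 500 on at least 1 array without a probe set of opposite sign (leaving out clone and provisional names), list members of largest ratio and genes next to the floor. Other genes past 2-fold, those next to the 2-fold line, Adipoq's comparison genes and genes named for probe set disagreement were picked after their values were seen. The members and lists were chosen with earlier results of these data known. The 8 alternatives were quantile normalization, ratios centred on 0, unscaled deposited values, floors at 0.1 and 0.4 of the trimmed mean, means over probe sets, removal of cross-hybridising probe sets (by their suffix) and a demand for 2 or more probe sets. The Sertoli arrays went through the same steps within their own table. The steps ran in Python 3.11.15 with pandas 2.3.3 and numpy 2.4.6, figures were drawn with matplotlib 3.10.9, and the code was tested on simulated data.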

Additional observations from a re-analysis of the deposited data

How the results depend on the processing

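The counts of 64 lower and 40 higher genes became 58 and 46 on the values as deposited, 60 and 45 with ratios centred on 0, 61 and 42 after quantile normalization, 56 and 31 with means over probe sets and 61 and 37 without probe sets prone to cross-hybridisation. Of the genes past 2-fold, 5 lower and 5 higher ones were represented by a probe set prone to cross-hybridisation. Among them Hmgb2, Gja1 and Kif5a had no ratio without such probe sets. A floor at 0.1 of the trimmed mean gave 61 higher genes, and a floor at 0.4 gave 22 higher and 35 lower. Demanding 2 or more probe sets, all past 2-fold, left 2 higher genes and 1 lower gene. Genes lower in both testis and Sertoli cells numbered 4, and 1 with the floor at 0.4. Under all 7 alternatives that give ratios, 23 of the 64 lower and 13 of the 40 higher genes were past 2-fold. The median of 40 of 45 lists kept its sign under these 7. The exceptions were the epididymal, niche receptor, interferon, apoptosis and imprinted lists. The rule for the 25 highest and 25 lowest ratios took extreme values and left out genes with a probe set of opposite sign. It thereby largely fixed in advance that none of these ratios turned its direction. Small or split ratios of other named genes did, over the 7 alternatives: Cyp17a1 ran from -0.19 to 0.22, Zbtb16 from -0.10 to 0.10, Plk1 from -0.19 to 0.03 and Kdr from -0.01 to 0.02, Lifr reached 1.24, and Gata4, Ldhc, Prm1 and Tnp2 crossed 0. The ratio of Hells was -1.52 with the floor at 0.4, and over probe sets the mean ratio was 0.72 for Abca1, 0.87 for Gja1, -0.95 for Ptbp2 and -0.78 for Smarca5. No paired analysis was possible because each genotype has 1 array and the labels give no shared replicate numbers. Dim genes limit the rest, since ratios at the floor are bounds. Some ratios of genes not far above the floor shrank too, to 0.20 for Smad7, 0.15 for Nr1h3 and -0.19 for Prim2.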

Other observations

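Some genes, within the lists and outside them, had probe sets that differed by more than 2-fold between themselves on the same pair of arrays. The leukaemia inhibitory factor receptor Lifr, which transmits a stem cell signal, had ratios of -0.41, 1.24, 0.50 and 0.09. The Polycomb ring finger gene Rnf2 had -0.40, -0.29 and -1.54, and Fam3c, a secreted factor, had 1.04, 1.05 and -0.18. St6gal1, a sialyltransferase, read 1284 on the wild-type and 513 on the knockout array, a ratio of -1.32, while its other probe set gave 0.30. Prkcz, an atypical protein kinase C of cell polarity, had -1.27, 0.18 and 0.27. Whether these probe sets read different transcripts was not tested.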
